A study of Mus musculus with 2 samples.

Results

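The nuclear-encoded proteins of respiratory complexes II to V were examined in mouse heart as a set of 63 gene entries, out of 55401 gene identifiers counted and 21897 protein-coding genes in the GENCODE M21 annotation. Members were taken by symbol alone. They are the protein-coding genes named Sdha to Sdhd, the succinate dehydrogenase assembly factors (Sdhaf followed by a digit), the Uqcr genes, Cyc1, Cycs, the Cox genes with a digit after the prefix, and the Atp5 genes. By complex this gave 8 entries for complex II, 9 for complex III, 1 for cytochrome c, 27 for complex IV and 18 for complex V. Atp5o has 2 entries, of which one is a readthrough locus, so the 63 entries carry 62 symbols.

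Both libraries came from C57BL/6 mouse hearts that had undergone transverse aortic constriction (TAC), an operation in which a band around the aortic arch makes the left ventricle pump against raised pressure. One group is labelled TAC alone, and the other TAC with dioscin, a steroidal saponin from plants, given for 4 weeks. Each group has 1 library, called the TAC library and the dioscin library here. Age and sex of the mice and the number of hearts behind a library are not stated in the sources used here. Both groups carry the constriction, and hearts without surgery were not analysed here. The treatment protocol text is worded alike for both samples and names dioscin, so the TAC library counts as untreated by its treatment label alone.

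Complex II, succinate dehydrogenase, passes electrons from succinate to ubiquinone. Complex III passes them to cytochrome c, complex IV passes them from cytochrome c to oxygen, and complexes III and IV pump protons as they do so. Complex V, ATP synthase, lets the protons flow back and makes ATP. Complex II is encoded wholly in the nucleus, whereas complexes III, IV and V also hold subunits made from mitochondrial DNA. Heart muscle draws most of its ATP from this chain and uses muscle isoforms of several complex IV subunits.

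Read counts per gene were scaled to the size of the library and are given as CPM. With 1 library a group there is no test of the treatment, no p-value and no error between mice. Ratios are therefore given with exact 95% Clopper-Pearson intervals, computed from both counts of a gene, and these hold counting error alone. A gene is called higher or lower in the dioscin library where it reached 1 CPM in at least 1 library, differed at least 2-fold, and had an interval that excluded 1. This is the size rule. Of the protein-coding genes that reached 1 CPM, 13219 in all, 9.8% passed it as higher and 7.27% as lower. In 36.8% of them the interval lay above 1 and in 32.5% below 1, and their median log2 ratio was 0.02.

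The libraries held 16782741 (TAC) and 17612259 (dioscin) counts in genes. Counts from the mitochondrial chromosome took 31.6% of the TAC library and 25.5% of the dioscin library. Markers of ventricular muscle were abundant in both, with a summed level of 50994 CPM against 53813 CPM over 9 genes, of which none passed the size rule as higher and 1 (Mybpc3) as lower. Myh6 made up 20675 CPM against 22660 CPM of this. Intervals lay above 1 for 6 of the 9 and below 1 for 3, with log2 ratios of -0.35 for Myl2, -0.40 for Myh7 and 0.66 for Myl3. The sum is therefore no measure of the amount of ventricular muscle. Other cell types moved with the groups. Of the 6 atrial markers 5 were higher in the dioscin library, with a summed level of 592 CPM against 17319 CPM, and Bmp10 and Mybphl were at 0 in the TAC library. Nppa made up 588 CPM against 12663 CPM of that sum, whereas Myl7 had 0.753 CPM against 1759 CPM and Myl4 3.18 CPM against 1970 CPM. Of the 8 mesothelial markers 7 were higher (18.5 CPM against 153 CPM summed), and of the 6 white fat markers 5 (0.811 CPM against 30.7 CPM). The 4 fibroblast markers summed to 379 CPM against 1244 CPM, of which Dcn made up 259 CPM against 1062 CPM, and the interval of Col1a1 included 1. The 4 endothelial markers summed to 843 CPM against 1154 CPM, with Pecam1 and Vwf higher by the size rule, Kdr at 304 CPM against 168 CPM and Cdh5 at 239 CPM against 240 CPM, and the 4 blood markers to 349 CPM against 283 CPM. Of the 4 brown fat markers Ucp1 and Zic1 were at 0 in both libraries, but Cidea was 2.97-fold higher, and the list summed to 15.8 CPM against 46.9 CPM. Of the 7 skeletal muscle markers Myh1 and Myh4 were at 0 in both, Tnni2 was 2.77-fold higher (31 counts against 86), and the list summed to 1297 CPM against 1758 CPM. Nearly all of that sum was Ckm (886 CPM against 1123 CPM) and Acta1 (408 CPM against 629 CPM). The part of these differences in the values below was not tested, and in whole hearts fewer cells of a type and less RNA per cell cannot be told apart.

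Promoters of 5 members are shown because nuclear respiratory genes are known as targets of NRF1, of the ETS factor GABPA, of ERR receptors, of YY1 and of Sp1, and because these 5 cover the main patterns in the values. Each is the 250 bases before the start of the gene, 5′ to 3′ on the strand of the gene, from RefSeq on GRCm38.p6, with motif matches in capitals. Cycs (cytochrome c, minus strand, chr6:50566570-50566819) and Sdhd (a membrane anchor of complex II, minus strand, chr9:50603850-50604099) passed the size rule as higher. Cox6a1 (minus strand, chr5:115348959-115349208) is the widely expressed partner of the muscle isoform Cox6a2. Cox7a1 (plus strand, chr7:30183921-30184170) and Cox8b (minus strand, chr7:140900447-140900696) are muscle isoforms of complex IV.
Cycs: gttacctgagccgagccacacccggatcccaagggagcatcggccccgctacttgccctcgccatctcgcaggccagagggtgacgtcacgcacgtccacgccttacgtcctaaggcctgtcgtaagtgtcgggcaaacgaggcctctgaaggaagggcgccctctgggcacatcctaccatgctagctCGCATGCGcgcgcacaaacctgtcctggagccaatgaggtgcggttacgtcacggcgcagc
Sdhd: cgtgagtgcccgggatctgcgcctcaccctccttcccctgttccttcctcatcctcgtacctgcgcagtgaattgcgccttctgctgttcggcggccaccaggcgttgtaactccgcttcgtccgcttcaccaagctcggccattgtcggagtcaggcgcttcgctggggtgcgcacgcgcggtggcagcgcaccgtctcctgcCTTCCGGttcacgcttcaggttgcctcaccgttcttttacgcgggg
Cox6a1: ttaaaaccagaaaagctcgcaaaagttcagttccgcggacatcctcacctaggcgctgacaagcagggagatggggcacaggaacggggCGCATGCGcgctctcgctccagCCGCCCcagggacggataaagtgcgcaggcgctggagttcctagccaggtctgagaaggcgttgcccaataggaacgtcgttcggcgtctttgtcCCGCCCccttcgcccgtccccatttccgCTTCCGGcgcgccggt
Cox7a1: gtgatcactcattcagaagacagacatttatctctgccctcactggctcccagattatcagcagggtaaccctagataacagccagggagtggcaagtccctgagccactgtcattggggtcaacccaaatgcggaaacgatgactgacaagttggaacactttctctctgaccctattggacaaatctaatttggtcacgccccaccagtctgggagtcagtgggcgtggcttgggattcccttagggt
Cox8b: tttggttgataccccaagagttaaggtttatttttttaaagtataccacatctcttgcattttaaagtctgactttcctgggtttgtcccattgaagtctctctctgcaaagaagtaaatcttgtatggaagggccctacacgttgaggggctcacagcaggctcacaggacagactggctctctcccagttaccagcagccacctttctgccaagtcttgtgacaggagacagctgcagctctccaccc
In the Cycs promoter the capitals are the NRF1 core GCATGCG, which overlaps its own reverse complement CGCATGC, so that the run CGCATGCG counts as a match on both strands. In Sdhd they mark the ETS core CCGGAAG, here as its reverse complement CTTCCGG. In Cox6a1 they mark, in order, the NRF1 core on both strands, the Sp1 box GGGCGG at 2 places as CCGCCC, and the ETS core as CTTCCGG. The Cox7a1 and Cox8b stretches hold no match to the 5 motifs searched, which says only that these letters are not in them.

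Windows of 300 bases (250 before the start and 50 after) were found for 48 of the 62 symbols, and the motifs were searched on both strands. A gene with several windows counts if any of them holds the motif. The ETS core CCGGAAG was in 20 of 48 members (41.67%), against 12.95% of 17492 protein-coding genes and 9.928% of all 27025 genes with a window. The NRF1 core GCATGCG was in 9 (18.75%), against 4.957% of protein-coding genes and 4.015% of all. The ERR half-site AAGGTCA was in 5 (10.42%), against 4.734% and 5.38%. The YY1 core AAGATGG was in 6 (12.5%), against 7.18% and 7.278%. The Sp1 box GGGCGG was in 24 (50%), against 49.23% and 38.2%. At least 1 motif was found for 36 members and none for 12. Of the 7 members with a window that passed the size rule as higher, 3 held none, namely Sdha, Uqcrfs1 and Atp5c1. A match is a description of the letters in the window and does not show that the factor binds there.

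Transcripts of most subunits of complexes II to V stood higher in the dioscin library, by a moderate amount. Of the 63 entries, 60 reached 1 CPM. Cox7b2 (2 counts against 0), Cox8c (0 in both) and the readthrough Atp5o locus (0 in both) did not. Of the 60, 9 (15%) were higher by the size rule, against 9.8% of all protein-coding genes measured, 1 (1.67%) was lower, against 7.27%, and 50 did not pass. The higher members were Sdha and Sdhd of complex II, Uqcrfs1 and Uqcrc2 of complex III, Cycs, Cox6b2 of complex IV, and Atp5a1, Atp5c1 and Atp5f1 of complex V. The lower one was Cox4i2. The counting interval lay above 1 for 42 (70%, against 36.8%), below 1 for 10 (16.7%, against 32.5%) and included 1 for 8. These background shares cover genes of all levels, whereas the members are abundant, so calls by level are given below. The median log2 ratio of the 60 was 0.51, a 1.42-fold difference, with a range from -1.26 to 1.54. In all, the members took 1.80% of the gene counts (TAC) and 2.58% (dioscin).

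**Figure D1:**
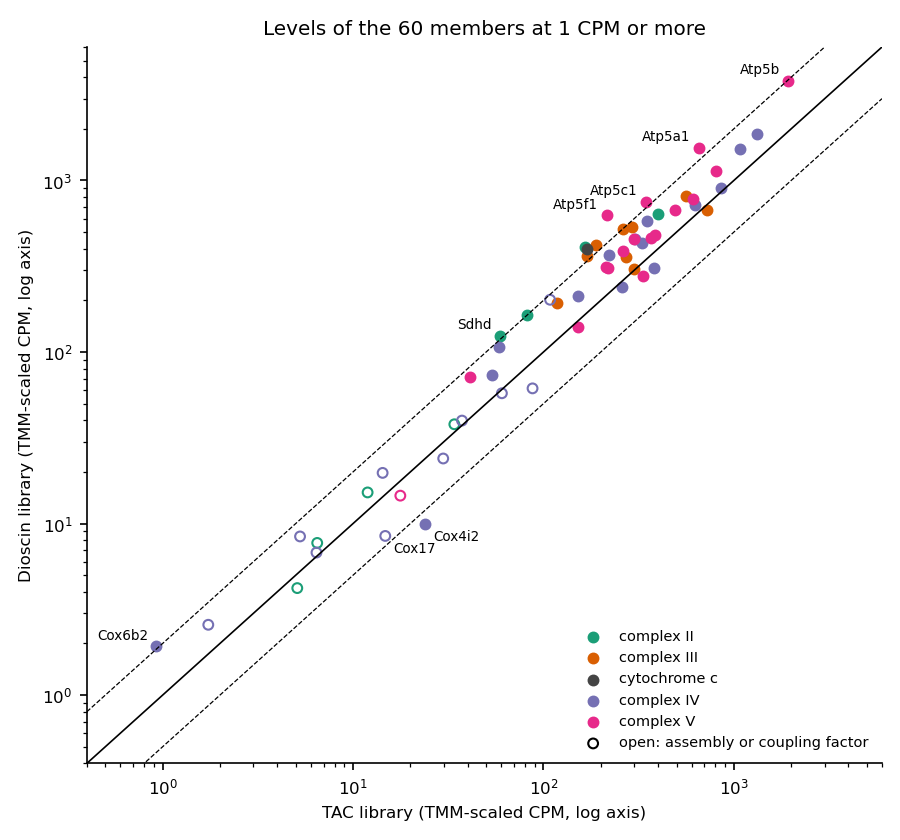
Level of each of the 60 members that reached 1 CPM in the TAC library (x axis, TMM-scaled CPM, log axis) and in the dioscin library (y axis, same unit), coloured by complex, with open circles for assembly factors and the complex V coupling factor. The solid line marks equal levels and the dashed lines 2-fold differences. Most points lie above the solid line, and Cox4i2 is the member past the lower dashed line.

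The structural subunits and cytochrome c stood apart in their values from the assembly and accessory factors. The 48 entries for subunits and cytochrome c, 45 of them at 1 CPM or more, had a median log2 ratio of 0.55. All 9 higher members and the lower one belonged to them, and the interval lay above 1 for 38. The 15 assembly and accessory factors had a median of 0.09. None of the 15 passed the size rule, where 9.8% of all protein-coding genes measured passed as higher and 7.27% as lower. The interval of these factors lay above 1 for 4, below 1 for 4, and included 1 for 7. Scaled by counts outside the mitochondrial chromosome, which moves the median of all protein-coding genes from 0.02 to -0.19, the medians were 0.35 and -0.11. The 2 groups also differ in level, with 295069 counts (TAC) over the 48 subunit entries against 7624 over the 15 factors. Other protein-coding genes had a median of -0.01 from 1 to 30 CPM and of 0.16 from 100 to 300 CPM. The part of level in this difference was not tested.

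In complex II all 4 catalytic and anchor subunits had intervals above 1, with a median log2 ratio of 1.03. Sdha, the flavoprotein that oxidises succinate (chromosome 13, 74322254 to 74350280, minus strand, GRCm38), had 2843 counts (TAC) against 6971 (dioscin). Scaled, that is 165 CPM against 407 CPM, a 2.47-fold higher level (interval 2.37 to 2.58). Sdhd (chromosome 9, 50596357 to 50603812, minus strand), an anchor that helps to hold the haem and the ubiquinone site, had 59.0 CPM against 125 CPM, a 2.11-fold higher level (1.96 to 2.28). Its promoter, like that of Cox6a1, is shown above with an ETS core. Sdhc, the other anchor, lay just under the size rule with 1424 counts against 2795 and a ratio of 1.98. Sdhb, the iron-sulfur subunit, had 400 CPM against 637 CPM (ratio 1.59). Per exonic length Sdhb was the most abundant of the 4, with length-scaled levels of 184 (TAC) and 276 (dioscin) (RPKM over all exons of the gene, relative to all gene counts), followed in the dioscin library by Sdhd at 98.4 and Sdha at 95.9. By principal transcript length Sdhb stayed first (542 in the dioscin library) and Sdha (136) stood above Sdhd.

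The 4 factors that build complex II differed less, with a median log2 ratio of 0.20. Sdhaf2, which helps to attach FAD to Sdha, had 588 counts against 649 (log2 ratio 0.16, but -0.05 with scaling by counts outside the mitochondrial chromosome) and an interval that included 1. Sdhaf4 (0.25) and Sdhaf3 (-0.27) also had intervals that included 1. Sdhaf1, which serves the iron-sulfur subunit, had a log2 ratio of 0.35, but 69.6% of its exonic length lies under a gene on the other strand, E130208F15Rik (148 counts against 209), whose reads cannot be told apart here.

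In complex III 2 of 9 subunits passed the size rule, both of the core. Uqcrfs1, the Rieske iron-sulfur protein (chromosome 13, 30540308 to 30545362, minus strand), had 3262 counts (TAC) against 7219 (dioscin) and was 2.23-fold higher (2.14 to 2.33). Uqcrc2, a core protein on the matrix side (chromosome 7, 120635176 to 120659524, plus strand), had 169 CPM against 364 CPM and was 2.15-fold higher (2.06 to 2.25). Pdzd9 on the other strand covers 19.7% of its exonic length and had 1903 counts against 2558. The other 2 core subunits differed less: Cyc1, the haem subunit that hands electrons to cytochrome c, had a log2 ratio of 0.40, and Uqcrc1 of 0.53.

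The small accessory subunits of complex III spread most. Uqcrb, which contributes to the ubiquinone site, had 4525 counts against 8905 (log2 ratio 0.99), and Uqcrh, the hinge protein at the cytochrome c dock, had 5056 against 9112 (0.86). Uqcr10 had a log2 ratio of 0.72. By contrast Uqcr11 had 5151 counts against 5245 (0.04, but -0.04 with scaling by total counts), with an interval that included 1, and Uqcrq had 12428 against 11495 (-0.10). Per exonic length Uqcr11 and Uqcrq were the 2 most abundant of the complex in the TAC library, at 479 and 404 on the same length-scaled level, whereas Uqcrb (577) led in the dioscin library. By principal transcript length Uqcrh (551) and Uqcrb (504) stood above Uqcrq (487) in the TAC library, with Uqcr11 first (690), and Uqcrh (946) and Uqcrb (945) were level in the dioscin library, so this order depends on the length used.

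Cytochrome c, the mobile carrier between complexes III and IV, is encoded by Cycs (chromosome 6, 50562563 to 50566538, minus strand). It had 2926 counts (TAC) against 6845 (dioscin). The level was 169 CPM against 400 CPM, 2.36-fold higher (2.26 to 2.47). Of the 50-base words of its principal transcript, 28.5% also occur in annotated transcripts of other genes, so reads from those words may have been lost or shared. The testis form of cytochrome c lies outside the name rule, and the 4 germ line markers had no count in the TAC library and at most 1 count in the dioscin library.

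Complex IV had the widest range of log2 ratios, set by 2 scarce subunits, Cox4i2 (-1.26) and Cox6b2 (1.03). Its other measured subunits lay between -0.31 (Cox7a1) and 0.86 (Cox8a), whereas those of complex V ran from -0.26 (Atp5e) to 1.54 (Atp5f1). The 15 nuclear-encoded subunits of complex IV at 1 CPM or more had a median log2 ratio of 0.49, with 12 intervals above 1 and 3 below. Among those found in nearly all tissues, Cox8a had 1014 counts against 1824 (0.86), Cox7b had 6044 against 9933 and Cox5a had 3825 against 6271, both at 0.73. For Cox5a, 32.0% of the transcript words are shared with other genes. Gm26631 on the other strand covers 12.8% of its exonic length and had 1949 counts against 2737. Cox5a and Cox5b sit next to the copper and haem core, yet Cox5b had a log2 ratio of 0.22. Cox6b1, towards the intermembrane space, stood at 0.40 and Cox7c at 0.58, with 53.0% of its transcript words shared with other genes. Cox6c had 14800 counts against 15502 (0.08, but -0.13 with scaling by counts outside the mitochondrial chromosome), near the median of all protein-coding genes. The heart form Cox6a2 was the most abundant member per exonic length, with length-scaled levels of 1630 (TAC) and 2194 (dioscin), and Cox4i1, the main form of the regulatory subunit that binds ATP, came next at 875 and 1176. By principal transcript length the order turns, with Cox4i1 at 1773 and 2384 above Cox6a2, whose value is the same by either length. Cox6a2 and Cox4i1 both had a log2 ratio of 0.51.

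Cox4i2 was the member that was lower in the dioscin library. It is an alternative form of subunit 4, known from lung and from oxygen-sensing and vessel wall cells, and is induced by low oxygen. It had 412 counts (TAC) against 170 (dioscin). The level was 23.9 CPM against 9.93 CPM, 2.40-fold lower (2.004 to 2.89), and its share of subunit 4 per exonic length was 3.44% against 1.03% (1.85% against 0.549% by principal transcript length). Markers of pericytes and vessel smooth muscle were read beside it, on a list of 9 chosen after this value was seen. Of these, Cspg4 (3.02-fold lower) and Notch3 (2.49-fold lower) passed the size rule. The pericyte genes Abcc9, Kcnj8 and Pdgfrb had log2 ratios of -0.81, -0.84 and -0.61, and Rgs5 had 0.05. The smooth muscle genes Acta2, Myh11 and Tagln lay at 0.39, 0.45 and 0.43. The list summed to 1533 CPM against 1473 CPM, and its part in the Cox4i2 value was not tested.

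The member of complex IV that passed as higher is a scarce one. Cox6b2, best known from testis, had 16 counts against 33, or 0.927 CPM against 1.93 CPM, 2.05-fold higher with an interval from 1.11 to 4.05. It made up 0.180% (TAC) and 0.285% (dioscin) of the Cox6b family per exonic length, with Cox6b1 as the rest. The testis form Cox8c had no count in either library, which allows at most 3 counts, or 0.174 CPM and 0.175 CPM.

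**Figure D2:**
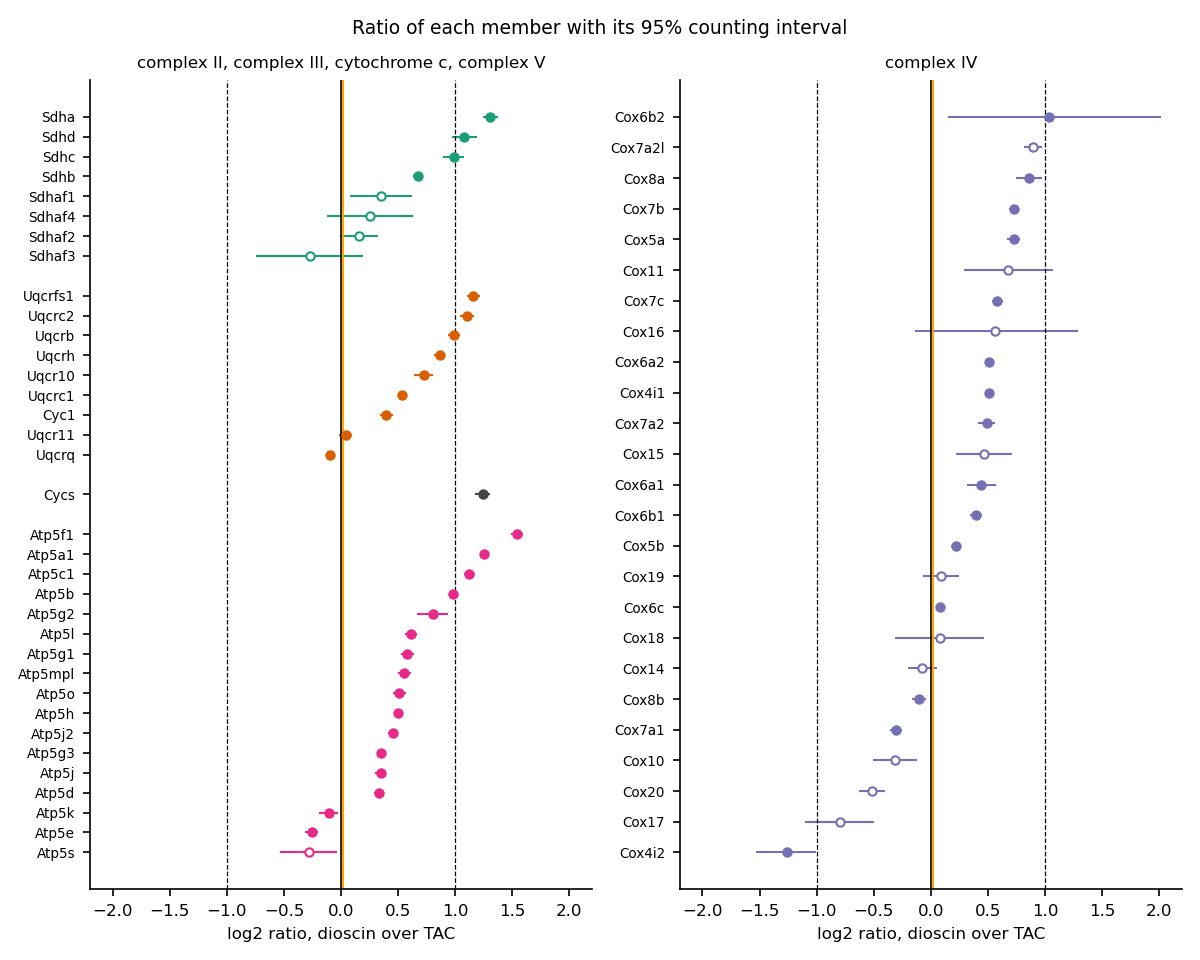
Log2 ratio, dioscin over TAC, for each of the 60 members (x axis), with bars for the 95% counting interval, sorted within complex II, complex III, cytochrome c and complex V (left) and complex IV (right). Open points are assembly or coupling factors, dashed lines are 2-fold and the orange line is the median of all protein-coding genes (0.02). Atp5f1 is highest at 1.54 and Cox4i2 lowest at -1.26.

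Muscle and general isoforms of the same complex IV subunit differed from each other in their ratios. Cox7a1, the muscle form of subunit 7a, had 6587 counts (TAC) against 5279 (dioscin; log2 ratio -0.31), whereas its general form Cox7a2 had 2626 against 3652 (0.49). Its share of the pair per exonic length was 81.6% (TAC) against 71.8% (dioscin). The share of undivided counts was 71.5% (exact binomial interval 70.6 to 72.4) and 59.1% (58.1 to 60.1), where the intervals hold counting error alone and do not test the treatment. Within each library this share does not depend on the scaling between libraries.

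The same direction was seen for subunit 8. The muscle form Cox8b had 4448 counts against 4115 (log2 ratio -0.10), whereas Cox8a stood at 0.86. The Cox8b share per exonic length was 88.3% (TAC) against 79.5% (dioscin). The ratio of Cox8b to Cox8a counts went from 4.39 to 2.26, a 1.94-fold lower ratio, and that of Cox7a1 to Cox7a2 from 2.51 to 1.45, 1.74-fold lower. Subunit 6a differed from both. The muscle form Cox6a2 held 95.4% of its pair (TAC) against 95.6% (dioscin), and the Cox6a2 to Cox6a1 ratio of counts, 20.0 in the TAC library, was 1.05-fold higher in the other. Among the promoters shown above, those of Cox7a1 and Cox8b hold no motif match. This does not set the muscle forms apart, since the same stretch before the start of Cox8a holds none either. The longer window of Cox8a, which runs past the start, holds an ETS core. The stretch before the start of Cox7a2 holds an Sp1 box. Whether motifs go with the isoform shares was not tested.

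The atrial markers (592 CPM against 17319 CPM, mostly Nppa) and the fibroblast and fat markers given above also summed higher in the dioscin library. With 1 library a group, a link between these markers and the isoform shares cannot be seen. The ventricular list summed to nearly the same level in both libraries, but with 6 intervals above 1 and 3 below. Whether the isoform shares follow the mix of cells was not tested. The principal transcripts of Cox8b (360 bases) and Cox7a1 (393 bases) fall in the shortest length class described below. Those of Cox8a (550), Cox7a2 (659) and Cox6a2 (680) are longer. The part of transcript length in these shares was not tested either.

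**Figure D3:**
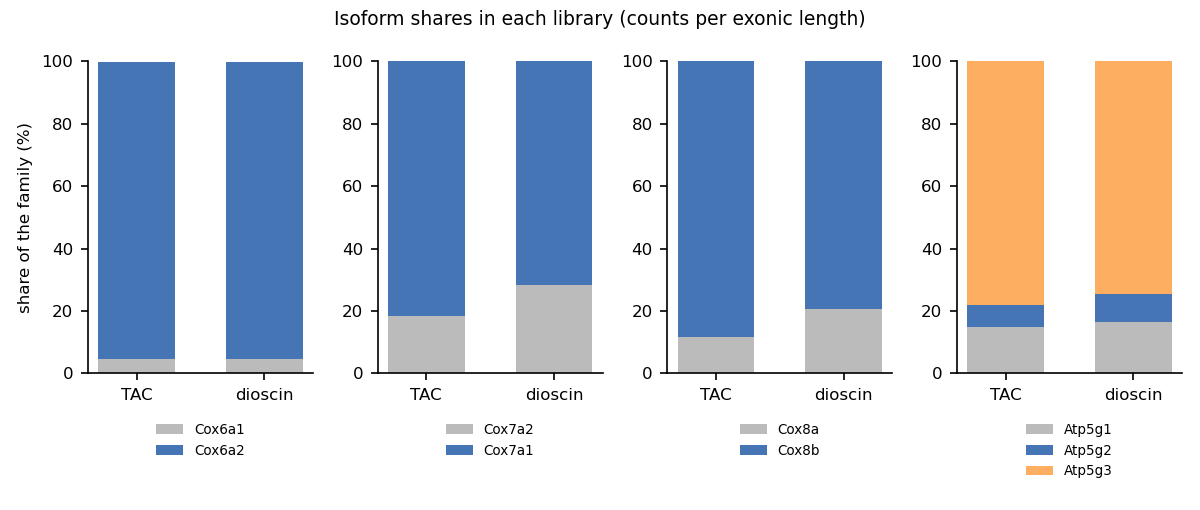
Share of each isoform in its family (y axis, percent of the counts per exonic length) in the TAC and dioscin libraries for Cox6a, Cox7a, Cox8 and the c subunit genes Atp5g. Cox6a2 stays near 95% in both, Cox7a1 goes from 81.6% to 71.8%, Cox8b from 88.3% to 79.5% and Atp5g3 from 78.2% to 74.5%.

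The 10 complex IV assembly and accessory entries had a median log2 ratio of 0.08, and none passed the size rule. Cox7a2l had 1872 counts against 3452 (0.90), with an interval above 1. Cox17, the copper chaperone, was at the other end with 255 counts against 145 (-0.80), or 14.8 CPM against 8.47 CPM, 1.74-fold lower (1.42 to 2.15). Between them, Cox15 (haem A synthesis, 0.46), Cox19 (0.09), Cox18 (0.08), Cox14 (-0.07) and Cox10 (haem O synthesis, -0.31) were spread around the background median, and Cox19 and Cox18 fall below 0 with scaling by counts outside the mitochondrial chromosome. Cox20 (-0.51), Cox11 (0.67) and Cox16 (0.56) share 91.1%, 48.3% and 56.8% of their exonic length with Hnrnpu, Tom1l1 and Gm20498, so their values are uncertain.

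In complex V 3 members passed the size rule as higher, the alpha and gamma subunits of the catalytic part and subunit b of the peripheral stalk, and the beta subunit lay just under it. Atp5a1, the alpha subunit, had 11306 counts (TAC) against 26640 (dioscin), or 655 CPM against 1556 CPM, 2.38-fold higher (2.33 to 2.43). Atp5b, the beta subunit that carries the catalytic sites, was the most abundant of the complex per exonic length in the dioscin library, with length-scaled levels of 470 (TAC) and 877 (dioscin). Its counts were 33400 against 65436, a ratio of 1.98 (1.95 to 2.003). Atp5c1, the gamma subunit that turns inside the head (chromosome 2, 10056016 to 10080510, minus strand), had 5957 counts against 12872 and was 2.18-fold higher (2.11 to 2.25). The other 2 stalk subunits differed from it, with log2 ratios of 0.33 for Atp5d (delta) and -0.26 for Atp5e (epsilon, 5761 counts against 4771).

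The largest ratio of all 60 members belonged to Atp5f1, subunit b of the peripheral stalk that holds the head still (chromosome 3, 105942698 to 105960099, minus strand). It had 3718 counts (TAC) against 10709 (dioscin). The level was 215 CPM against 626 CPM, 2.91-fold higher (2.80 to 3.02). Wdr77 on the other strand covers 8.2% of its exonic length and had 357 counts against 344, and 38.7% of the 50-base words of its principal transcript recur in transcripts of other genes. Its partners in the stalk differed less, with log2 ratios of 0.51 for Atp5o (OSCP), 0.50 for Atp5h (subunit d) and 0.35 for Atp5j (F6). Of the transcript words, 50.3% for Atp5o and 47.9% for Atp5h are shared with other genes. D430001F17Rik on the other strand covers 17.5% of the exonic length of Atp5o and had 375 counts against 1153. Atp5h was the most abundant of the complex per exonic length in the TAC library, with a length-scaled level of 565.

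The proton-carrying c ring is made from 3 genes that encode the same mature protein. Of the RNA counts of these genes per exonic length, Atp5g3 made up 78.2% (TAC) against 74.5% (dioscin). Atp5g1 made up 14.9% and 16.6%, and Atp5g2 6.89% and 8.95%. By principal transcript length Atp5g3 kept the largest share (88.3% and 85.6%), but Atp5g1 had 5.80% and 6.57% and Atp5g2 5.90% and 7.82%, so the order of these 2 depends on the length used. Of undivided counts Atp5g1 made up 28.6% and 31.4%. Their log2 ratios were 0.35 (Atp5g3), 0.58 (Atp5g1) and 0.80 (Atp5g2). Of the words of the Atp5g2 transcript, 87.4% recur in transcripts of other genes, so its share is uncertain.

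Of the small membrane subunits, Atp5l (0.61, with 84.8% of its transcript words shared with other genes), Atp5mpl (0.55) and Atp5j2 (0.45) had intervals above 1, and Atp5k (2615 counts against 2401, -0.11), which helps complex V to form dimers, had one below 1. Atp5s, the coupling factor B, is no structural subunit and had 306 counts against 249 (-0.28). Over the 16 subunits of complex V that reached 1 CPM the median log2 ratio was 0.53.

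Summed over subunits, all 4 complexes stood higher in the dioscin library, by the largest ratio in complex II and the smallest in complex IV. The sums are of these length-scaled levels, which carry no TMM factor. Complex II went from 300.3 (TAC) to 519.6 (dioscin; log2 ratio of sums 0.79), complex III from 2121 to 2930 (0.47), complex IV from 6158 to 7388 (0.26) and complex V from 3126 to 4547 (0.54). Cytochrome c went from 51.2 to 114 (1.16).

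The subunits of the same complexes that are made from mitochondrial DNA stood the other way. None of the 6 passed the size rule, but all 6 had intervals below 1, with a median log2 ratio of -0.29. Complex III has mt-Cytb (-0.03). In complex IV, mt-Co1, which holds the oxygen-binding site, was at -0.07, mt-Co3 at -0.42 and mt-Co2, which takes electrons from cytochrome c, at -0.51 (6877 CPM against 4842 CPM). In complex V, mt-Atp6, the channel for protons, was at -0.22 and mt-Atp8 at -0.36. All 6 stayed below 0 under the 4 scalings tried, whereas the median of the nuclear members stayed above 0. Per length, the mitochondrially encoded sums went from 38265 to 35295 for complex III, from 87340 to 74591 for complex IV and from 6137 to 4964 for complex V. These sums are on the scale used for the nuclear subunits.

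**Figure D4:**
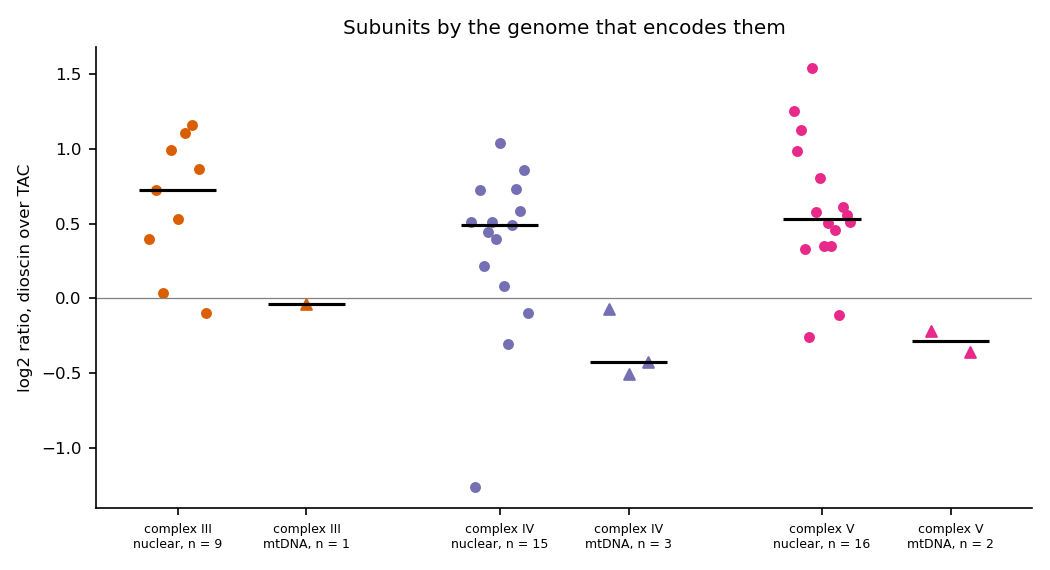
Log2 ratio, dioscin over TAC, (y axis) for the nuclear-encoded subunits at 1 CPM or more (circles) and the mitochondrially encoded subunits (triangles, labelled mtDNA) of complexes III, IV and V, with black lines for the medians. The nuclear medians are 0.72, 0.49 and 0.53, and all 6 triangles lie below 0.

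Members with transcripts of at most 500 bases had the lowest median. Of the 7 members at 1 CPM or more whose principal transcript has at most 500 bases, 5 had intervals below 1 (Cox8b, Atp5k, Cox7a1, Atp5e and Cox20), Uqcr11 had one that included 1, and Uqcr10 had one above 1. The value of Cox20 is uncertain, since 91.1% of its exonic length is shared with Hnrnpu. Of the 68 other protein-coding genes of that length at 1 CPM or more, intervals lay below 1 for 17 and above 1 for 19. The median log2 ratio of the 7 members was -0.11, against -0.00 for these other protein-coding genes. The 19 members between 500 and 750 bases had a median of 0.51, against 0.21, the 5 between 750 and 1000 bases 0.45, against 0.28, and the 9 between 1000 and 1500 bases 0.73, against 0.25. In the longer classes the members' medians were 0.53 (1500 to 2000 bases, against 0.12), 0.35 (2000 to 3000 bases, against -0.01) and 0.52 (over 3000 bases, against -0.05), so there was no steady rise with length. Over all 60 members the correlation of log2 ratio with principal length was weak (Spearman's rho 0.14, as a description across genes of 1 pair of libraries). The part of transcript length in these values was not tested.

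Abundant genes as a whole stood higher in the dioscin library, and the members are abundant. Other protein-coding genes between 100 and 300 CPM (geometric mean of both libraries) had a median log2 ratio of 0.16, against 0.73 for the 13 members of that level. Between 300 and 1000 CPM the medians were 0.28 and 0.45 (23 members), and from 1000 CPM on 0.50 and 0.75 (4 members). From 1 to 30 CPM they were -0.01 and 0.16 (12 members), and from 30 to 100 CPM 0.04 and 0.30 (8 members). Between 100 and 300 CPM, 4 of 13 members were higher by the size rule, against 90 of 866 other genes. Between 300 and 1000 CPM these were 2 of 23 against 27 of 174, and from 1000 CPM on 1 of 4 against 9 of 34. Intervals lay above 1 for 11 members against 467 other genes, 19 against 112, and 4 against 26 in these 3 classes.

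**Figure D5:**
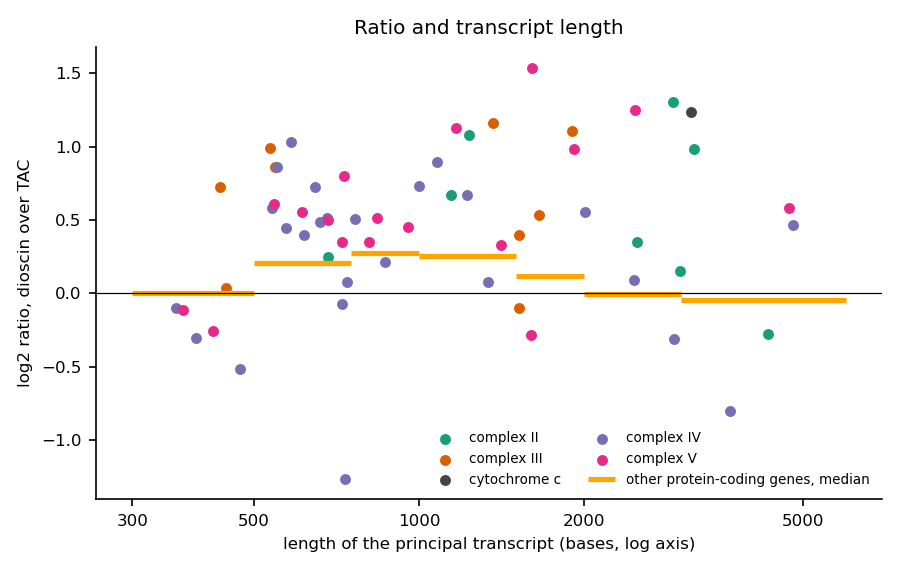
Log2 ratio, dioscin over TAC, (y axis) against the length of the principal transcript (x axis, bases, log axis) for the 60 members, coloured by complex, with orange bars for the median of the other protein-coding genes in each length class. Of the 7 members up to 500 bases, 5 lie below 0.

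Other genes of the pathway were read from lists. The 28 assembly factors outside the name rule, 27 of them at 1 CPM or more, had a median log2 ratio of 0.20, and none passed the size rule. For complex V the 6 factors had a median of 0.45, with Atpif1, the inhibitor of ATP hydrolysis, at 0.67 and Tmem70 at 0.65. For complex IV the 17 measured had a median of 0.07, and for complex III the 3 had -0.12. The 14 transcriptional regulators of respiratory genes had a median of 0.20, and none passed. Among them Nrf1 stood at 0.69 and Ppargc1a, a coactivator of mitochondrial biogenesis, at 0.41, whereas Esrra was at -0.43, Pprc1 at -0.67 and Ppargc1b at -0.70.

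Of the 15 dehydrogenases and carriers that feed the chain or serve it, 4 passed as higher and none as lower, with a median log2 ratio of 0.67. Of all protein-coding genes measured, 9.8% passed as higher and 7.27% as lower, with a median of 0.02. Most of the 15 exceeded 100 CPM in the dioscin library. In the 3 classes above 100 CPM, 90 of 866, 27 of 174 and 9 of 34 other protein-coding genes were higher, as given above, with medians of 0.16, 0.28 and 0.50. Etfa (3.97-fold higher) and Etfdh (3.14-fold higher) carry electrons from fatty acid oxidation to ubiquinone, beside complex II. Etfb, the partner subunit of Etfa, had 746 counts against 612 (-0.27), with an interval below 1. Vdac1, the pore of the outer membrane, was 2.44-fold higher, and Cs, citrate synthase, 2.07-fold higher. Slc25a4, which exchanges ATP for ADP, had a log2 ratio of 0.70, and Dhodh, which feeds ubiquinone from pyrimidine synthesis, had 207 counts against 113 (-0.86).

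The calls depend on the scaling. With the counts outside the mitochondrial chromosome as the base, 4 members stayed past the size rule as higher (Sdha, Cycs, Atp5a1 and Atp5f1), Cox4i2 stayed lower and Cox17 joined it. The 10 calls describe 1 pair of libraries, and the difference between mice was not measured.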

How the data were processed

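Per the labels' protocols, Trizol RNA of frozen hearts was made into libraries with the Illumina TruSeq RNA kit, with 1 library for TAC and 1 for TAC with dioscin. The deposited files hold unscaled read counts for each gene. The authors' tools were HISAT2 2.1.0 and HTSeq with build mm10, per the submitters' processing notes, and the HTSeq version, annotation release and strand setting are not given in the sources used here. Lines without a gene, 5 per file, were left out. Reads in no gene made up 30.04% (TAC) and 30.03% (dioscin) of all reads counted, and reads with several alignments 38.2% and 36.5%, which removes reads shared between near-identical copies.

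Genes were named from GENCODE M21, which matched 55141 of 55401 identifiers without the version number. Counts were scaled here with TMM factors (edgeR 4.0.16, R 4.3.3) to CPM. Log2 ratios used a pseudocount of 0.5. The intervals are exact 95% Clopper-Pearson (scipy 1.17.1) and cover counting error only, since PCR copies were not told apart. The floor of 3 counts is 0.174 CPM (TAC) and 0.175 CPM (dioscin). The computation was tested on simulated data.

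Members, lists and alternatives were chosen with earlier results of these data known. The named genes are all members past the size rule, the 2 highest and 2 lowest ratios and the 2 most abundant members per complex, all isoform families, all members under 1 CPM, and up to 4 genes of each other list past the size rule. Other genes named from the lists, such as regulators, were chosen after their values were seen. Alternatives changed the scaling (DESeq2 1.42.0 among them), the filter, the fold, the pseudocount, the length used, or centred the ratios over length or GC content. A planned check of 50-base words against the genome was replaced, after seeing the data, by one against annotated transcripts. Division by principal transcript length was also added then.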

Additional observations from a re-analysis of the deposited data

How the results depend on the processing

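No paired analysis was possible because each group has 1 library, and for the same reason no library could be left out. The count of members past the size rule, 9 higher and 1 lower, became 4 and 2 with scaling by counts outside the mitochondrial chromosome (Atp5c1, Cox6b2, Sdhd, Uqcrc2 and Uqcrfs1 lost, Cox17 gained as lower), 22 and 2 at a fold of 1.5, and 0 and 0 at a fold of 3. Scaling by total counts lost Cox6b2 and Sdhd, centring over length lost Atp5c1, Cox6b2, Sdhd and Uqcrfs1 and gained Atp5b, centring over GC content gained Cox8a, and a minimum of 5 CPM lost Cox6b2. DESeq2 size factors and a pseudocount of 1 changed no call. The median log2 ratio of the members, 0.51, was 0.42 with total counts, 0.30 with counts outside the mitochondrial chromosome, 0.33 centred over length, and 0.45 as a mean. The median of the assembly and accessory factors went from 0.09 to -0.11 with counts outside the mitochondrial chromosome, a scaling that moves the median of all protein-coding genes to -0.19. Without members that share over 50% of their words with other genes the median was 0.48. By principal transcript length, the share of Cox6a2 was 94.4% (TAC) and 94.6% (dioscin), that of Cox7a1 70.8% (dioscin), and that of Cox8b 87.0% and 77.5%. The shares of Cox4i2, Atp5g1 and Atp5g2, and the abundance order within complexes II, III and IV and among the c ring genes, also change with the length used, as given beside them. With counts not divided by length, Cox4i2 had 1.78% and 0.527%, Cox7a1 71.5% and 59.1%, and Cox8b 81.4% and 69.3%. The log2 ratio of the summed levels was, for complexes II, IV and V, 0.83, 0.30 and 0.66 with undivided counts. It was 0.67, 0.34, 0.14 and 0.42 for complexes II, III, IV and V relative to counts outside the mitochondrial chromosome, and 0.74, 0.49 and 0.48 for complexes II, III and V by principal length. Apart from the scalings, the cause of these moves was not tested. Counting error is widest for the members with few counts, such as Cox6b2 and Cox16, and the spread between mice was not measured.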
